A study of Homo sapiens with 4 samples.

Results

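Dual-specificity phosphatases of the DUSP family that act on mitogen-activated protein kinases (MAPKs) were examined in SY5Y cells, a human neuroblastoma (NB) cell line labelled as MYCN wild type. The members were chosen by name as 10 genes: DUSP1, DUSP2, DUSP4, DUSP5, DUSP6, DUSP7, DUSP8, DUSP10, DUSP14 and DUSP16. Of these, 9 had a row among the 57820 gene rows and all 9 were among the 16468 genes tested. DUSP14, an atypical member without a kinase interaction domain, could not be matched by gene identifier and is not analysed here. The cells were exposed for 12 h to DMSO, the solvent, or to SGSS05-NS, with 2 libraries per condition and therefore 4 in all. The labels and the figure legends of the study give the dose as 3 μM, whereas its methods give another dose for SY5Y cells. The study describes such an experiment with a compound named SGSS05-NS3, a covalent inhibitor of SETD8, an enzyme that monomethylates histone H4 and p53. In the study's enzyme panel SGSS05-NS3 also inhibited several other methyltransferases, at higher concentrations than SETD8. The study lists SGSS05-NS by that name among compounds that inhibit SETD8 and other methyltransferases. Whether the labels mean SGSS05-NS3 was not settled here. The methods describe the replicates as independent biological replicates. The comparison asks how the transcripts of these phosphatases differed between treated and control cells of this single line.

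MAPK phosphatases switch off MAPKs by removing phosphate from both the threonine and the tyrosine of the activation loop. DUSP1, DUSP2, DUSP4 and DUSP5 are nuclear enzymes whose genes are known to be induced by growth factors and stress. DUSP6 and DUSP7 are cytoplasmic enzymes that prefer the kinase ERK, and DUSP6 is a well known feedback target of ERK signalling. DUSP8, DUSP10 and DUSP16 act mainly on JNK and p38, the stress-activated kinases. Transcript levels report neither the amount nor the activity of the enzymes.

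Between 21463105 and 25350204 fragments fell on genes per library. Replicates differed beyond sampling noise in both conditions (chi-square per gene of 8.76 for DMSO and 11.8 for SGSS05-NS). Fragments outside annotated exons made up 12.3% to 12.4% of all fragments with DMSO and 15.3% to 16.1% with SGSS05-NS. Markers of noradrenergic neuroblasts summed to 4832 and 5243 CPM (counts relative to the library total, scaled by TMM) in the DMSO libraries and to 2918 and 2868 CPM in the SGSS05-NS libraries, and 8 of the 10 tested were called lower. TH, a defining marker of this lineage, was close to absent with 0 to 2 fragments per library. The mesenchymal list summed to between 59.4 and 77.1 CPM with 0 of 6 tested genes called by edgeR, although 1 was higher (CD44) and 1 lower (COL1A2) at an unadjusted p under 0.05 and the likelihood ratio test called 1 lower. Its summed level was mostly FN1, YAP1 was tested and not called, and PRRX1 was at 0. The Schwann cell list stayed at or under 2.57 CPM, with SOX10 at 0, and the blood and endothelial list at or under 0.225 CPM, with HBB at 0. The part of these differences in the results below was not tested. In bulk RNA, fewer cells of a type and less RNA per cell cannot be told apart.

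With SGSS05-NS, 5 of the 9 phosphatase genes rose and 0 fell. DUSP5 rose most, by 8.80-fold, followed by DUSP1 with 3.13-fold, DUSP8 with 2.87-fold, DUSP4 with 2.73-fold and DUSP10 with 2.48-fold. The other 4, DUSP2, DUSP6, DUSP7 and DUSP16, were not called. Calls were made at an adjusted p-value under 0.001, the threshold of the study, with edgeR's quasi-likelihood test and Benjamini-Hochberg adjustment over all genes tested. At this threshold 6.37% of all genes tested were higher and 8.14% lower. At an unadjusted p under 0.05, 0 members were lower and 7 were higher. Many genes passed this cutoff: MAP3K9, with an unadjusted p of 0.047 (edgeR), ranked only 8714 of 16468 by p-value. Counts at this cutoff, here and in the other lists, are therefore no added support. The likelihood ratio test, DESeq2 and limma voom each called 5 members higher and 0 lower. The background of these 3 tests was 12.3%, 6.93% and 6.1% of genes higher and 13.8%, 9.7% and 7.93% lower. The study's own methods name the likelihood ratio test. In 7 of the 9 members both SGSS05-NS libraries lay above both DMSO libraries, an order that 37.8% of all genes tested showed, and in 0 members both lay below, against 36.9% of all genes. The median log2 fold change of the members was 1.31, against 0.01 for all genes tested. The members were chosen with earlier results of these data known, so these contrasts with all genes are a description only. The plot of levels by library and the plot of changes show the members in the order of their classes.

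**Figure D1:**
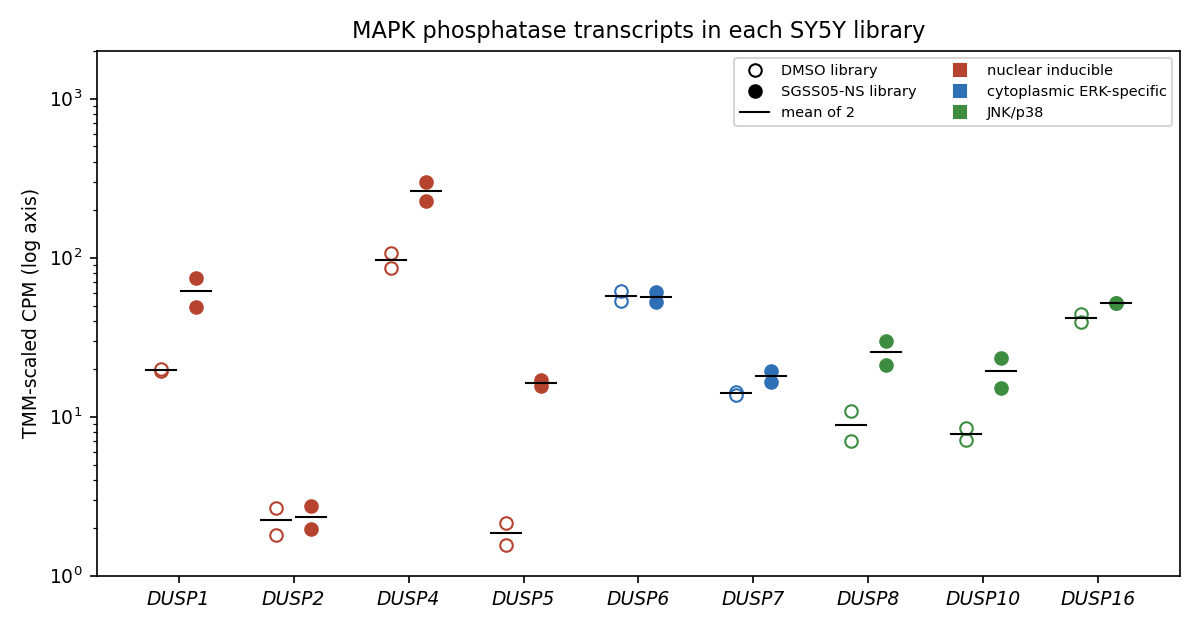
Level of each phosphatase gene in each of the 4 SY5Y libraries, as TMM-scaled CPM on a log axis. Open points are DMSO libraries, filled points SGSS05-NS libraries, lines the mean of the 2 libraries, and colours the class. DUSP1, DUSP4, DUSP5, DUSP8 and DUSP10 show a gap between conditions. DUSP7 and DUSP16, which were not called, show a smaller gap, while the points of DUSP2 and DUSP6 overlap.

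**Figure D2:**
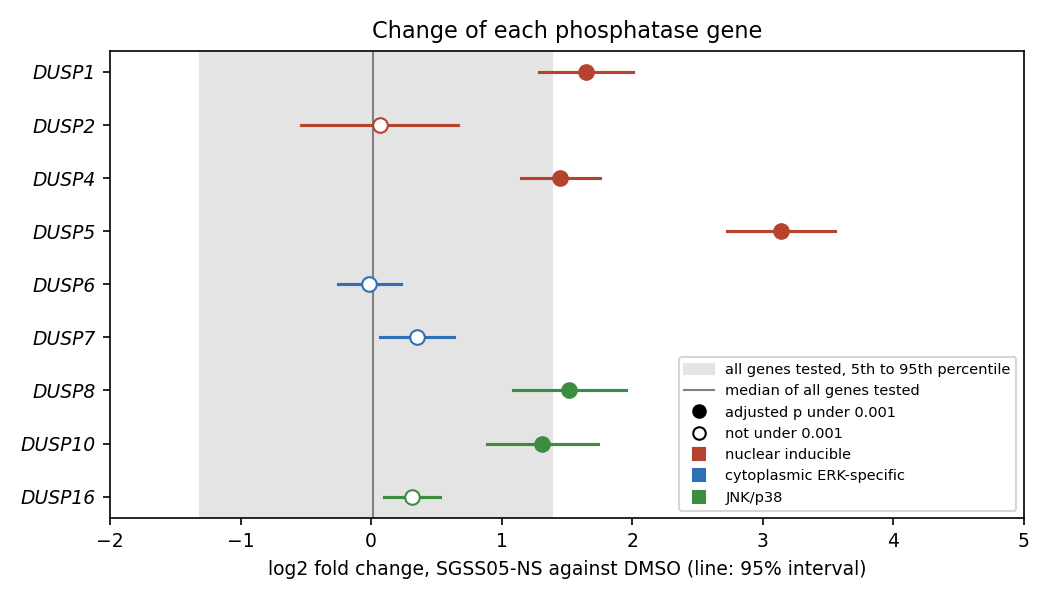
Log2 fold change of each phosphatase gene with SGSS05-NS against DMSO, with its 95% interval from edgeR's fit. Filled points passed an adjusted p under 0.001, and the grey band spans the 5th to 95th percentile of all genes tested, from -1.31 to 1.38. DUSP1, DUSP4, DUSP5 and DUSP8 lie beyond the band and DUSP10, at 1.31, inside its upper edge.

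The promoters of some members that rose together are shown because they differ in a short sequence, the cAMP response element (CRE) with the letters TGACGTCA, to which CREB and ATF proteins bind. RefSeq promoter sequences (GRCh38.p14, another build than that of the counts) were matched by symbol for 8 of the 10 members, with 9 entries since DUSP10 had 2 starts. The 250 bases before each start were searched on both strands. DUSP1 held 1 CRE, its first base 125 bases before the start, and DUSP8 held 2, at 118 and 74 bases before the start. No CRE was found in these windows of DUSP2, DUSP6, DUSP7, DUSP10, DUSP14 or DUSP16, and there was no entry for DUSP4 and DUSP5. Of 35116 windows of the same length over all entries, 1.65% held a CRE and 0.0541% held 2 or more. The shorter core TGACG, which lies on each strand of a CRE and so counts 2 times in it, was found 4 times in DUSP1 and 4 times in DUSP8 and in none of the other member windows, against 21.2% of all windows with at least 1. A match is a description of letters and not of binding. The CRE was 1 of several motifs searched and is shown for its matches, so these shares do not measure how unusual they are. The windows of DUSP1 and DUSP8 were 74.4% and 76.8% G or C, those printed for DUSP10 and DUSP6 56.4% and 57.2%. Windows without a CRE that are not printed, of DUSP2, DUSP7, DUSP14 and DUSP16, had 74% to 82.8%. The sequences of DUSP1 and DUSP8 are given with the first of the 2 entries of DUSP10, which also rose, and DUSP6, which was not called, 5′ to 3′, with every TGACG on either strand in capitals.
DUSP1 (chr5:172771196-172771445, minus strand): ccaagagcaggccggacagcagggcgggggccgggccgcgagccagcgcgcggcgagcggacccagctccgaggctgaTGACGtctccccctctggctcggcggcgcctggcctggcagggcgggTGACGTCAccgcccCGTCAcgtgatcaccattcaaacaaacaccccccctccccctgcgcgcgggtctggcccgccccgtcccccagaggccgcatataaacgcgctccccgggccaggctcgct
DUSP8 (chr11:1572272-1572521, minus strand): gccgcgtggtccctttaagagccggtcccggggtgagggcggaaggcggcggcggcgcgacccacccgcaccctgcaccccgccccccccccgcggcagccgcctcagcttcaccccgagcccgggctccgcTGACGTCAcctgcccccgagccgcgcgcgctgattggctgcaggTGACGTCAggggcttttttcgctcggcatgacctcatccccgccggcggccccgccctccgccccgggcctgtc
DUSP10 (chr1:221742090-221742339, minus strand): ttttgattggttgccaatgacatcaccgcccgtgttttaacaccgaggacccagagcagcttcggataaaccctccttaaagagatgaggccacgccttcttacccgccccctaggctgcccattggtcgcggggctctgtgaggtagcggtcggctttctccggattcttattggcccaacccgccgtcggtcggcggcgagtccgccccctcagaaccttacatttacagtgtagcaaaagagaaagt
DUSP6 (chr12:89352502-89352751, minus strand): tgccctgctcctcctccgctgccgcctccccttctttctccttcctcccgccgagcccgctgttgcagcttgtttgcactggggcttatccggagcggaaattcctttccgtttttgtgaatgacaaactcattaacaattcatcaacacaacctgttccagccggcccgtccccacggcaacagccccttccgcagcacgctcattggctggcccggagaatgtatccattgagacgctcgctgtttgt

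Of other motifs searched in the same windows on both strands, the heat shock elements GAANNTTC and TTCNNGAA (in 5.78% and 6.62% of all windows), the AP-1 site TGANTCA (6.57%) and the CArG box of the factor SRF (1.16%) had 0 matches in the member windows. The E-box CACGTG (6.34% of all windows) was found once each in DUSP1 and DUSP2, and a TATA box, TATAAA (10.7%), in DUSP1 only among the member windows. GC boxes, GGGCGG (42.6%), were found 5 times in DUSP14, 4 times each in DUSP1 and DUSP8, 3 times in DUSP2, 3 times and 1 time in the windows of DUSP10, 2 times in DUSP7, 1 time in DUSP16 and not in DUSP6.

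Among the nuclear inducible genes, 3 of 4 rose, with a median log2 fold change of 1.55 over the 4. DUSP5 (ENSG00000138166.5), which encodes a nuclear phosphatase specific for ERK, spans 112257665 to 112271291 of chromosome 10 (plus strand, positions from here on in GRCh37). It was nearly silent in control cells, with 39 and 50 fragments per DMSO library, and had 344 and 399 after SGSS05-NS. Scaled to CPM, the values were 1.55 and 2.14 with DMSO and 15.5 and 17.0 with SGSS05-NS. The 2 conditions were far apart and the treated libraries close to each other. The log2 fold change was 3.14 ± 0.19 (SE, 95% interval 2.72 to 3.55, adjusted p = 3e-07, edgeR), which placed DUSP5 at rank 138 of all genes tested by size of rise. Its interval lay above those of the other 8 members, although differences in fold change between genes were not tested.

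DUSP1 (ENSG00000120129.5, chromosome 5 from 172195099 to 172198198, minus strand) encodes the archetypal MAPK phosphatase, known to act on ERK, JNK and p38. Its level was 19.5 and 20.1 CPM with DMSO and 48.8 and 75.0 CPM with SGSS05-NS. The control libraries were nearly equal, whereas replicate 2 of the treated libraries was 1.54 times as high as replicate 1. Its mean was 19.8 ± 0.414 CPM (SD, n = 2) under DMSO and 61.9 ± 18.5 CPM (SD, n = 2) under SGSS05-NS, and the difference on the log2 scale was 1.65 ± 0.17 (SE, 95% interval 1.28 to 2.01, adjusted p = 1.4e-05, edgeR).

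DUSP4 (ENSG00000120875.4, chromosome 8 from 29190581 to 29208201, minus strand), a nuclear phosphatase related to DUSP1, was the member with the highest CPM in every library. It had 106 and 86.2 CPM with DMSO and 300.2 and 226 CPM with SGSS05-NS. Here replicate 1 was the higher library in both conditions, and the lower treated library was still above the higher control. The log2 fold change was 1.45 ± 0.14 (SE, 95% interval 1.15 to 1.75, adjusted p = 9.8e-06, edgeR).

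DUSP2 (ENSG00000158050.4, chromosome 2 from 96808908 to 96811179, minus strand), best known as an inducible phosphatase of immune cells, was the nuclear member that was not called. It had 67 and 42 fragments with DMSO and 61 and 46 with SGSS05-NS, or 2.67 and 1.80 CPM against 2.75 and 1.96 CPM. The libraries of both conditions overlapped. Its log2 fold change was 0.06 (95% interval -0.54 to 0.66, adjusted p = 0.87, edgeR), so that a change of 0.54 on the log2 scale in either direction could not be told from none at this depth, and its sign depended on which library was left out (-0.21 to 0.37).

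For the cytoplasmic ERK-specific class the median was 0.17 on the log2 scale, and 0 of 2 were called by edgeR's quasi-likelihood test, by its likelihood ratio test, by DESeq2 or by limma voom. At an unadjusted p under 0.05, 1 of them, DUSP7, was higher. DUSP6 (ENSG00000139318.7, chromosome 12 from 89741012 to 89746278, minus strand) had 53.3 and 61.2 CPM with DMSO and 61.2 and 52.3 CPM with SGSS05-NS. The libraries of the 2 conditions covered the same range. Its log2 fold change was -0.01 with a 95% interval from -0.25 to 0.23 (adjusted p = 0.93, edgeR), which bounds a difference more tightly than for DUSP2. The sign of this value changed with the scaling and with the library left out (-0.14 to 0.10), so no direction is given. On the opposite strand, the 2 members with enough fragments for a test, DUSP6 and DUSP16, were not called, where 3.67% of genes were higher and 5.76% lower.

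DUSP7 (ENSG00000164086.8, chromosome 3 from 52082935 to 52090587, minus strand) had 14.4 and 13.7 CPM with DMSO and 19.4 and 16.5 CPM with SGSS05-NS. Both treated libraries lay above both controls. DUSP7 differed by 0.35 ± 0.13 on the log2 scale (SE, 95% interval 0.07 to 0.64), and its adjusted p of 0.045 from edgeR missed the threshold of 0.001. At an adjusted p under 0.05, DUSP7 and DUSP16 would join the 5 higher members, while 22.6% of all genes tested were then higher and 23.7% lower. Under 0.01 the members called were again the 5, with a background of 14.1% higher and 15.9% lower.

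Among the genes whose products prefer JNK and p38, 2 of 3 rose, with a median log2 fold change of 1.31. DUSP8 (ENSG00000184545.6, chromosome 11 from 1575281 to 1593501, minus strand), a phosphatase prominent in brain, whose promoter with 2 CREs is printed above, had 7.05 and 10.8 CPM with DMSO and 21.3 and 29.7 CPM with SGSS05-NS. Replicate 2 was the higher library in both conditions, by 1.53 times with DMSO and 1.40 times with SGSS05-NS, and the conditions did not overlap. The log2 fold change was 1.52 ± 0.20 (SE, 95% interval 1.09 to 1.95, adjusted p = 9.3e-05, edgeR). The gene overlaps the start of an antisense RNA on the plus strand, KRTAP5-AS1 (from 1592583 to 1620414). KRTAP5-AS1 had 35 and 30 fragments with DMSO and 145 and 226 with SGSS05-NS, a log2 fold change of 2.59 ± 0.25 (SE, adjusted p = 9.8e-06, edgeR). The counts used here separate the strands, and the column for the opposite strand held 0 fragments for DUSP8 in each library. DUSP8 has pseudogene copies, and fragments that map to several places were not counted, so its level may be counted too low. The 1 tested copy, DUSP8P5, had between 30 and 43 fragments per library and was not called (log2 fold change 0.35, adjusted p = 0.31, edgeR).

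DUSP10 (ENSG00000143507.13, chromosome 1 from 221874766 to 221915431, minus strand) encodes a phosphatase of JNK and p38 that is found in both nucleus and cytoplasm. It had 7.09 and 8.47 CPM with DMSO and 15.1 and 23.5 CPM with SGSS05-NS. Replicate 2 of the treated libraries was 1.55 times as high as replicate 1, and both lay above the controls. The log2 fold change was 1.31 ± 0.20 (SE, 95% interval 0.88 to 1.74, adjusted p = 0.00024, edgeR). It was the called member with the largest p-value, and without replicate 2 of SGSS05-NS the value was 0.96.

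DUSP16 (ENSG00000111266.4, chromosome 12 from 12626216 to 12715797, minus strand), a cytoplasmic phosphatase of JNK and p38, had 44.1 and 39.5 CPM with DMSO and 51.9 and 52.1 CPM with SGSS05-NS. The treated libraries were nearly equal and lay above both controls. A log2 fold change of 0.31 ± 0.10 (SE, 95% interval 0.10 to 0.53, adjusted p = 0.022, edgeR) missed the threshold.

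The classes also differed in how much transcript they held. Here the ERK-specific class means the cytoplasmic DUSP6 and DUSP7, while DUSP5, also specific for ERK, is counted with the nuclear inducible genes. Levels of different genes were compared as CPM per kilobase (kb) of exons, a scale that corrects for length, over all annotated exons of a gene. With DMSO, the nuclear inducible genes summed to 26.3 and 23.6 CPM per kb, the ERK-specific genes to 16.4 and 18.3, and the JNK/p38 genes to 10.1 and 10.7. With SGSS05-NS, the corresponding sums were 73.1 and 76.0 for the nuclear inducible genes, 19.3 and 16.5 for the ERK-specific genes, and 16.9 and 21.6 for the JNK/p38 genes. The ratio of the means was thus 2.99 for the nuclear inducible class, 1.03 for the ERK-specific class and 1.85 for the JNK/p38 class. For the ERK-specific class the direction of this ratio changed with the library left out. The share of the nuclear inducible genes in the level of all 9 members was 49.8% and 44.9% with DMSO and 66.9% and 66.6% with SGSS05-NS. The share of the ERK-specific genes was 31.0% and 34.8% with DMSO and 17.7% and 14.4% with SGSS05-NS. The share of the JNK/p38 genes was 19.2% and 20.4% with DMSO and 15.5% and 18.9% with SGSS05-NS. These shares add up within a library, so a rise in one class lowers the others.

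**Figure D3:**
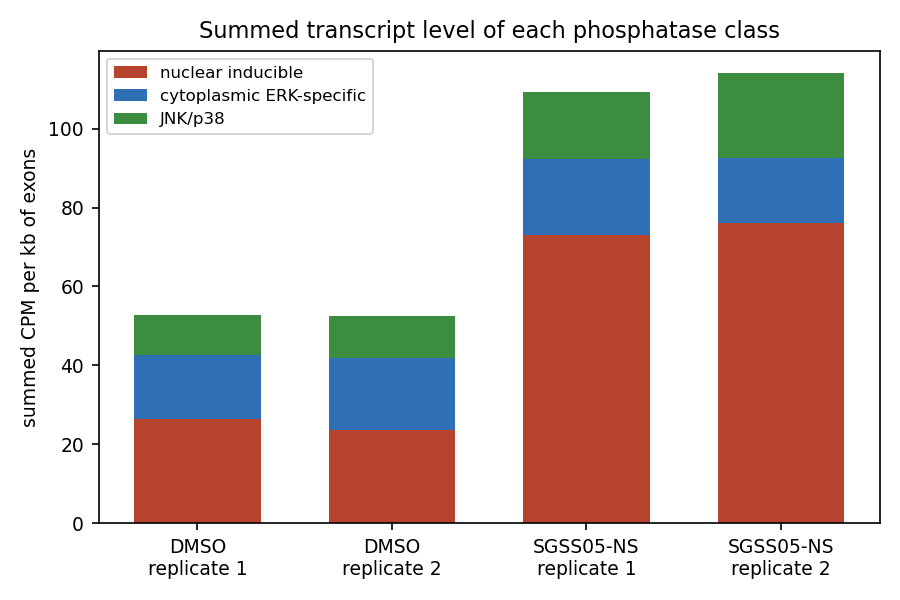
Summed level of the 3 classes of phosphatase genes in each library, as TMM-scaled CPM per kb of exons, stacked from 0. The sum of all 9 members was 52.8 and 52.6 with DMSO against 109 and 114 with SGSS05-NS, and most of the added height is the nuclear inducible class.

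The order of the members by level changed accordingly. In the DMSO libraries DUSP6 (13.8 and 15.9 CPM per kb) and DUSP4 (14.6 and 11.8) led and overlapped, followed by DUSP1 (9.68 and 9.97) and DUSP16 (6.18 and 5.53). DUSP10, with a mean of 2.75, and DUSP7, with 2.48, overlapped as well, and DUSP8 (1.80), DUSP2 (1.16) and DUSP5 (0.729) were lowest. In the SGSS05-NS libraries DUSP4 (41.3 and 31.1 CPM per kb) and DUSP1 (24.2 and 37.2) led and overlapped, and DUSP6 (15.9 and 13.5) came next. DUSP16, DUSP10, DUSP5 and DUSP8 followed with means from 7.29 to 5.14, and their neighbours in this order overlapped except DUSP5 and DUSP8. DUSP7 (3.17) and DUSP2 (1.22) were last.

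The replicates of SGSS05-NS did not differ alike for all called members. Replicate 2 was the higher one for DUSP10, DUSP1 and DUSP8, with ratios to replicate 1 of 1.55, 1.54 and 1.40, and the lower one for DUSP4, with 0.753. For DUSP5 the ratio was 1.09. Over the 11412 genes whose mean log2 CPM was 2 or more, the 5th and 95th percentiles of this ratio were 0.792 and 1.27, so 4 of the 5 called members lay outside this range. Among the FOS and JUN genes, which encode subunits of the factor AP-1, the same ratio was 2.13 for FOS and 1.87 for FOSB. It was 1.82 for JUN, 1.23 for JUND, and close to 1 for JUNB (1.03) and FOSL2 (0.970). FOSL1, with 152 and 106 fragments in the SGSS05-NS libraries, went the other way with 0.658. The ratios are given as a description of 2 libraries.

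Gene length is given beside the calls. DUSP1, DUSP2, DUSP6 and DUSP7 span less than 10 kb of genome, DUSP4, DUSP5, DUSP8 and DUSP10 between 10 and 50 kb, and DUSP16 89.6 kb. Of all genes tested, 6.6% under 10 kb, 9.47% between 10 and 50 kb and 2.8% over 50 kb were called higher, with median log2 fold changes of 0.10, 0.14 and -0.22, and 5.86%, 1.91% and 17.3% were called lower. Of the MAPK pathway genes read below, the 8 called lower all span over 50 kb. They are KSR2 (516 kb), RPS6KA2 (497), PTPRR (283), MAP3K5 (236), MEF2C (187), RPS6KA6 (148), MAP2K6 (139) and ETV1 (100). Of those called higher, PPM1D (66.1 kb) and ATF3 (55.4 kb) also exceed 50 kb, and many pathway genes over 50 kb were not called. The part of length in the values of the members or of these genes was not tested.

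The genes around these phosphatases in the MAPK pathway were read from 7 lists with 107 tested genes. Of these, 20 were higher and 8 lower at an adjusted p under 0.001 (edgeR), against 6.37% and 8.14% of all genes tested. Their median log2 fold change was 0.01. In the ERK cascade, from RAS to ERK, 0 of 18 genes were higher by any of the 4 tests and 1 was higher at an unadjusted p under 0.05 (SHC1), while 1, the scaffold gene KSR2, was lower with 62 and 78 fragments against 16 and 23 (log2 fold change -1.76, adjusted p = 0.00052, edgeR). Without replicate 1 of SGSS05-NS this adjusted p was 0.0014. GRB2, an adaptor gene, had a log2 fold change of -0.37 and was not called (adjusted p = 0.0081, edgeR), and SHC1 had 0.35 (adjusted p = 0.016, edgeR).

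In the JNK and p38 cascade, 1 of 28 genes was higher and 2 were lower, against the background of 6.37% and 8.14% of all genes tested. The likelihood ratio test called 3 higher and 6 lower, against 12.3% and 13.8% of all genes tested. At an unadjusted p under 0.05, 8 were higher and 9 lower, a cutoff that the gene at rank 8714 of 16468 also passed. MAP2K6, which encodes a kinase that activates p38, fell from 45.8 and 53.1 CPM to 11.0 and 15.9 CPM, a log2 fold change of -1.87 ± 0.15 (SE, adjusted p = 3.1e-06, edgeR). MAP3K5, which encodes the stress kinase ASK1, fell from 16.9 and 15.8 CPM to 6.08 and 7.23 CPM (log2 fold change -1.29, adjusted p = 3.5e-05, edgeR). MAPK8IP1, a JNK scaffold, rose from 66.1 and 64.5 CPM to 104 and 103 CPM (log2 fold change 0.67, adjusted p = 0.00012, edgeR). Among 11 kinases activated by MAPKs, MKNK2 rose (log2 fold change 0.82) and RPS6KA2 (-1.16) and RPS6KA6 (-0.70) fell, with adjusted p-values of 6.5e-05, 2.9e-05 and 0.00048 from edgeR. RPS6KA6 had an adjusted p of 0.0012 when libraries were scaled by size only.

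Of 12 further dual-specificity phosphatases tested, 2 were higher and 0 lower, against 6.37% and 8.14% of all genes tested. The likelihood ratio test called 3 higher and 1 lower, against 12.3% and 13.8% of all genes tested. At an unadjusted p under 0.05, a cutoff that many genes passed, 5 were higher and 1 was lower. DUSP3, an atypical phosphatase that acts on ERK and JNK, rose from 25.8 and 23.5 CPM to 78.3 and 94.0 CPM (log2 fold change 1.81 ± 0.11 SE, adjusted p = 4e-07, edgeR). DUSP26, a phosphatase of neural and neuroendocrine tissue, rose from 24.3 and 24.4 CPM to 41.5 and 44.2 CPM (log2 fold change 0.81, adjusted p = 7.2e-05, edgeR). DUSP12 had a log2 fold change of 0.57 and was not called (adjusted p = 0.0067, edgeR). Among 8 tested phosphatases of other families that act on MAPKs, PPM1D, a phosphatase gene known as a p53 target, rose from 75.1 and 71.5 CPM to 199 and 192 CPM (log2 fold change 1.42, adjusted p = 5.1e-07, edgeR). PPP2CB, a catalytic subunit of PP2A, rose as well (log2 fold change 0.70, adjusted p = 1e-04, edgeR). PTPRR, a tyrosine phosphatase that binds MAPKs, fell from 3.31 and 3.34 CPM to 1.13 and 0.978 CPM (log2 fold change -1.66, adjusted p = 0.00027, edgeR), and its adjusted p was 0.0011 without replicate 2 of SGSS05-NS.

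Genes downstream of MAPK signalling were read from the last 2 lists. Of 15 tested genes of ERK output and feedback, 7 were higher and 1 was lower, with a median log2 fold change of 0.10. EGR1, an immediate early transcription factor, had 1.55 and 1.46 CPM with DMSO and 23.2 and 39.7 CPM with SGSS05-NS (log2 fold change 4.38, adjusted p = 3.1e-07, edgeR). FOS, a subunit of the factor AP-1, rose from 0.678 and 0.856 CPM to 35.2 and 75.0 CPM (log2 fold change 6.16, adjusted p = 3.7e-07, edgeR). FOSL1, a relative of FOS, had 1 and 0 fragments with DMSO and 152 and 106 with SGSS05-NS, a ratio of scaled counts of 273 with an exact binomial 95% interval from 48.6 to 10843 that covers counting error only. The Sprouty, SPRED and ETV genes of this list, feedback regulators and targets of ERK, were named after their values were seen. SPRY4 rose with a log2 fold change of 1.06 and SPRED3 with 1.52, while ETV1 fell with -0.71 (adjusted p = 5.1e-05, 0.00061 and 7e-04, edgeR). SPRY1, SPRY2, SPRED1, SPRED2, ETV4 and ETV5 were not called, with log2 fold changes between -0.43 and 0.10. With replicate 2 of SGSS05-NS left out, 6 genes of the list were called higher and 0 lower, so ETV1 was then not called.

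Of 15 transcription factor genes regulated by MAPKs, 7 were higher and 1 was lower, with a median log2 fold change of 0.58. ATF3, a stress-induced factor of the CREB and ATF family, rose from 3.15 and 4.62 CPM to 63.7 and 103 CPM (log2 fold change 4.43, adjusted p = 1.3e-07, edgeR). JUNB rose from 21.4 and 19.6 CPM to 67.4 and 69.4 CPM (log2 fold change 1.74, adjusted p = 2.4e-07, edgeR). FOSB had 5 and 4 fragments with DMSO and 185 and 366 with SGSS05-NS, and was called higher (adjusted p = 1e-06, edgeR). The plot of the pathway by list shows the 9 members together with these lists.

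**Figure D4:**
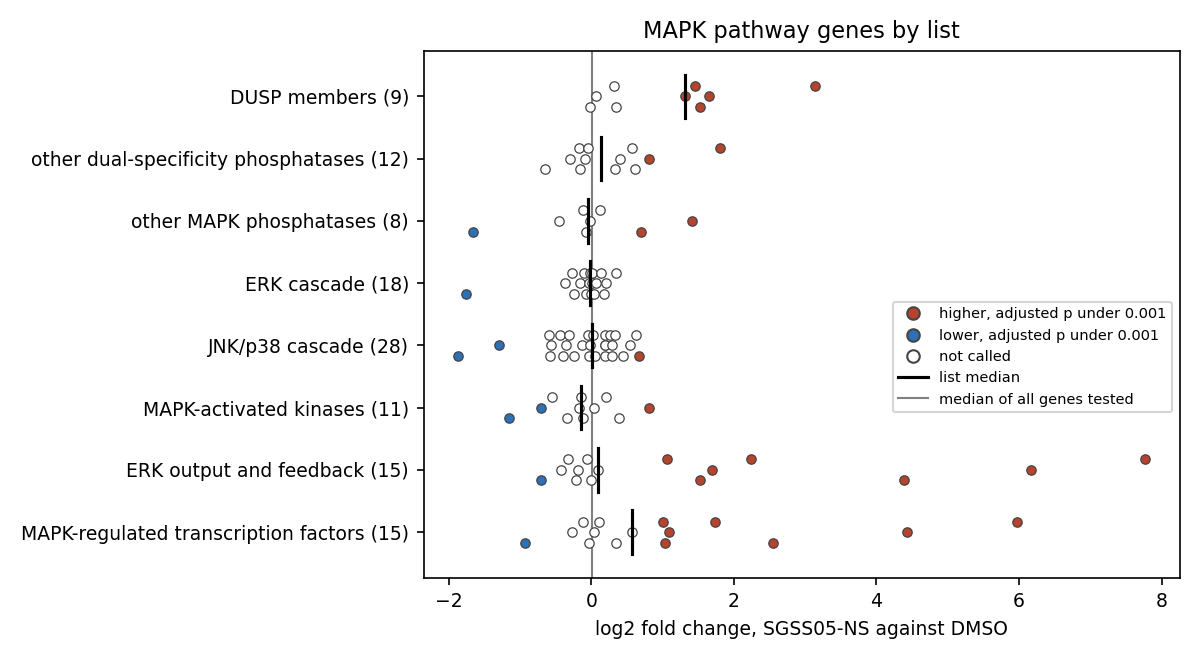
Log2 fold change of each tested gene with SGSS05-NS against DMSO, by list, with the number of genes tested in parentheses and black bars for list medians. Red points were higher and blue points lower at an adjusted p under 0.001 (edgeR). The medians of the ERK and JNK/p38 cascades are -0.01 and 0.01, and 5 of the 9 DUSP members are called higher. The rightmost point, FOSL1, had 1 fragment in the DMSO libraries together, so its fitted value of 7.77 depends on how so few counts are treated.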

How the data were processed

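RNA of 4 SY5Y libraries was analysed. Paired reads had been trimmed (Trimmomatic 0.30) and mapped to hg19, or GRCh37, with STAR (2.4.2a in the submitters' processing notes). The authors deposited STAR's raw counts per gene, unnormalized and library by library, for either strand and for both together. STAR leaves out a fragment that maps to more than 1 place. Its 4 summary rows were not part of the gene counts tested. The labels name a TruSeq RNA kit and the methods a stranded total RNA kit with ribosomal RNA removal.

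Reverse-strand counts were filtered (filterByExpr), scaled by TMM and compared between SGSS05-NS and DMSO with the quasi-likelihood test of edgeR 4.0.16 (R 4.3.3). P-values were adjusted by Benjamini-Hochberg over 16468 genes, with a threshold of 0.001. The standard error is the size of the log2 fold change over the square root of F, and the 95% interval uses the degrees of freedom of the fit. With 2 libraries against 2, the spread of a gene is largely estimated from other genes. The script was tested on simulated data. GENCODE 44 on GRCh37 supplied symbols (for 55538 of 57820 rows), positions and exon lengths. DUSP14, DUSP27 and PECAM1 found no row.

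The members and gene lists were chosen with earlier results of these data known, and the lists were written from general knowledge. By rule, the genes to name were all members, the up to 3 tested genes of each other list with the smallest p-values, and genes that overlap a member. Others were named outside this rule. They are some markers, pseudogenes of members, JUN, JUND, FOSL2, MAP3K9, MEF2C, and the Sprouty, SPRED and ETV genes. The results of 4 genes are not reported here. Alternatives were the likelihood ratio test of edgeR, limma 3.58.1 (voom), DESeq2 1.42.0, other scalings, filters and thresholds, a replicate block, unstranded counts, and each library left out in turn, in which the lone library of a condition is assumed to vary like the other. DESeq2 gave no adjusted p for 1278 genes, which stayed missing.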

Additional observations from a re-analysis of the deposited data

How the results depend on the processing

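The 5 called members, DUSP1, DUSP4, DUSP5, DUSP8 and DUSP10, kept their direction and passed the threshold under each of the 13 other fits run, and the members called stayed at 5 higher and 0 lower in each fit at 0.001, 5 and 0 at an adjusted p under 0.01 and 7 and 0 under 0.05. The numbers of genes called, 1049 higher and 1341 lower, moved to 2034 and 2570 without a filter on low counts, to 2022 and 2267 with the likelihood ratio test, to 3728 and 3903 at an adjusted p under 0.05, and to 2321 and 2616 under 0.01. The labels number the replicates alike in both conditions, but same-numbered libraries hardly deviated together (correlation over genes 0.0526), and with the replicate number as a block 1759 genes were higher and 2007 lower, with 5 members higher and 0 lower, so the block changed no call of a member. DUSP6 had a log2 fold change of 0.021 with libraries scaled by size only. With single libraries left out, the log2 fold change ranged from -0.21 to 0.37 for DUSP2 and from -0.14 to 0.10 for DUSP6. The median of the cytoplasmic ERK-specific genes, DUSP6 and DUSP7, ranged from 0.042 to 0.28. Their log2 ratio of summed levels ranged from -0.075 to 0.16, and that of the JNK/p38 class from 0.70 to 1.05. The log2 fold change of DUSP1 ranged from 1.30 to 1.91, of DUSP4 from 1.22 to 1.64 and of DUSP5 from 2.91 to 3.36. For DUSP8 it ranged from 1.23 to 1.83 and for DUSP10 from 0.96 to 1.59. Over the alternatives, the number of genes called ranged for the JNK/p38 cascade from 1 to 6 higher and 2 to 9 lower, for the ERK cascade from 0 to 1 and 0 to 2, for kinases activated by MAPKs from 1 to 2 and 1 to 4, for ERK output from 6 to 7 and 0 to 3, for transcription factors from 6 to 9 and 1 to 2, for further dual-specificity phosphatases from 2 to 5 and 0 to 1, and for other MAPK phosphatases from 2 to 2 and 0 to 2. Where a value moved, the cause was not tested. Low counts limit DUSP2 and the control level of DUSP5.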

Other observations

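The column of counts on the opposite strand was read for the members as well. DUSP6 had 15 and 17 opposite-strand fragments with DMSO and 5 and 10 with SGSS05-NS, a log2 fold change of -1.29 that was not called (adjusted p = 0.028, edgeR's quasi-likelihood test on that column with 7200 genes). For DUSP16 the DMSO libraries held 49 and 53 and the SGSS05-NS libraries 38 and 41 (log2 fold change -0.58, adjusted p = 0.089, edgeR). The other 7 members had too few opposite-strand fragments for the test, at most 12 in a library. Of the RNAs annotated across the members on the plus strand, ENSG00000253736 at DUSP1 had 0 or 1 fragment per library and ENSG00000255670 at DUSP16 between 1 and 5. Also annotated there, ENSG00000274021 at DUSP6 and ENSG00000290048 at DUSP16 had no row of counts, so their levels are not known. The pseudogene DUSP5P1 had 9 and 5 fragments with DMSO and 16 and 10 with SGSS05-NS and was not tested, and DUSP5P2 and the other 4 copies of DUSP8 had 0.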
